A study of Mus musculus with 16 samples.

Results

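Transcripts of the red cell lineage were followed in mouse gastrocnemius muscle: Alas2, the heme enzyme gene of erythroid cells, and the adult globin genes Hbb-bs, Hbb-bt, Hba-a1 and Hba-a2. These 5 genes, of 35415 in the count table, were taken by symbol, and all 5 were among the 14749 genes with enough counts to test. They were chosen with measured values of these mice in view, and the comparison that led to the choice is not named. It was taken to be untrained tumor-bearing mice against untrained controls, which is described here without a test, but values of the other groups may have entered the choice as well. The muscles came from 16 male wild-type BALB/c mice, bought at an age of 8 weeks, in 4 groups of 4 that carried the same batch label: controls (C), exercise-trained mice (E), tumor-bearing mice (T) and tumor-bearing trained mice (TE). T and TE mice were given CT26 cells, a mouse colon carcinoma line that came from the same strain, under the skin at the left dorsolateral hind limb. C and E mice were given saline at that site under the same anesthesia. E and TE mice ran on a treadmill at 14 m/min for 60 min a day, 6 days a week, for 4 weeks, whereas C and T mice stood on a stationary one. The model is 1 implanted line in 1 sex, close to the hind limb.

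Hemoglobin is a tetramer of α- and β-globin chains, each holding a heme. In developing red cells heme is made from glycine and succinyl-CoA, and the first and limiting step is carried out by the erythroid 5-aminolevulinate synthase encoded by Alas2. Its counterpart Alas1 serves other cells, skeletal muscle among them. Maturing red cells lose their nucleus, and young circulating cells, the reticulocytes, still carry globin and Alas2 transcripts, so that muscle collected with its blood holds some of this RNA. In bulk muscle, more cells of this lineage and more RNA per cell cannot be told apart.

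Alas2 (ENSMUSG00000025270) lies on chromosome X at 149330371 to 149353634 on the plus strand of GRCm39, and its first listed transcript has 11 exons. The β-globin genes Hbb-bs (ENSMUSG00000052305, 103475730 to 103482989) and Hbb-bt (ENSMUSG00000073940, 103461727 to 103465047) lie side by side on the minus strand of chromosome 7. The α-globin genes Hba-a1 (ENSMUSG00000069919, 32233186 to 32234504) and Hba-a2 (ENSMUSG00000069917, 32246168 to 32247320) lie on the plus strand of chromosome 11, with starts 12982 bases apart. Each globin transcript has 3 exons. In the reference genome the members of each pair are nearly the same gene, which bears on how reads were divided between them. In the GENCODE transcripts the coding sequences of Hba-a1 and Hba-a2, each of 426 bases, differed by 1 base, C381T, counted from 1 at the start codon with the base of Hba-a1 first. Those of Hbb-bs and Hbb-bt, each of 441 bases, also differed by 1 base, C417T, with the base of Hbb-bs first. The stretches of 90 coding bases that end at these positions are shown 5′ to 3′ because they hold the sole coding difference within each pair, in capitals:
Hba-a1: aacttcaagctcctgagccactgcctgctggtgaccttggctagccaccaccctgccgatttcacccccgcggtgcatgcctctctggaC
Hba-a2: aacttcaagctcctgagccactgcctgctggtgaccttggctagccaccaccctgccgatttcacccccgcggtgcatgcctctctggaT
Hbb-bs: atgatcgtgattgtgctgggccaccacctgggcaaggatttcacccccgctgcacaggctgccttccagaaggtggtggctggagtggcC
Hbb-bt: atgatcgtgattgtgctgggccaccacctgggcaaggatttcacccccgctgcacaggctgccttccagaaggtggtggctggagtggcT

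Of the 150-base windows in the coding sequence of Hba-a1, 231 of 277 (83.39%) occurred letter for letter in Hba-a2. For Hbb-bs the share found in Hbb-bt was 267 of 292 (91.44%). Over whole transcripts with their untranslated ends, 60.95% of the windows of Hba-a1 and 54.56% of those of Hbb-bs were shared with the paralog. BALB/c mice also carry another haplotype of the β-globin locus than the C57BL/6 mice of the reference genome. The β-globin sequences shown here and below are those of the reference and were not read from these mice. Levels of Hbb-bs and Hbb-bt are counts assigned to the reference genes. The division of counts within a pair is therefore uncertain. How reads that fit both copies were counted is not stated, so the level of a pair's sum is uncertain as well.

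The promoters are shown because the 5 genes varied together from mouse to mouse. The 250 bases before the RefSeq transcript start (table build GRCm38.p6) were placed on GRCm39 by exact match, and each α-globin sequence matched 2 places, of which the one nearest its gene was taken. The windows were chrX:149330163-149330412 (plus strand) for Alas2, chr7:103477136-103477385 and chr7:103463131-103463380 (minus strand) for Hbb-bs and Hbb-bt, and chr11:32233422-32233671 (plus strand) for Hba-a1. They lie wholly or partly inside the GENCODE genes, whose models start further upstream. Capitals mark GATAA on either strand, the core of the site read by GATA factors:
Alas2: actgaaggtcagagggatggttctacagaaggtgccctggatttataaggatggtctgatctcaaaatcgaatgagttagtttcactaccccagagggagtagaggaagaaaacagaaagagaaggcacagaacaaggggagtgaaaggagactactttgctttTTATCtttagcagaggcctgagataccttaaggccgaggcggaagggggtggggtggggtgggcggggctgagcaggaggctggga
Hbb-bs: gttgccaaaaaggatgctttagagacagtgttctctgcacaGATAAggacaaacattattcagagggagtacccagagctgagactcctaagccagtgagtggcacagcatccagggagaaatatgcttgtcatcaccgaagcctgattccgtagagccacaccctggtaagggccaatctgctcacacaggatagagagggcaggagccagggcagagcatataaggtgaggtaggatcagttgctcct
Hbb-bt: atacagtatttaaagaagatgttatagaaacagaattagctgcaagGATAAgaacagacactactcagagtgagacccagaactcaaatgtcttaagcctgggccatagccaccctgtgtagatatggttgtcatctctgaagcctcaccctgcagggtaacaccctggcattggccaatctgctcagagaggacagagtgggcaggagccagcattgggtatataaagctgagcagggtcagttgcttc
Hba-a1: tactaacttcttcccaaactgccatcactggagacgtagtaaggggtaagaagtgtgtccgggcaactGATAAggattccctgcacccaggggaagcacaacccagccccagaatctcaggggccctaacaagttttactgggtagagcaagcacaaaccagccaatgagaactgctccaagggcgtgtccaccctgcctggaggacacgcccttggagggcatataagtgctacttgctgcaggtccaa

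The Hba-a2 window, not printed, shared a run of 247 bases with that of Hba-a1, shifted by 3 bases. On either strand, GATAA was in all 5 windows and in 22.58% of 32851 promoter windows of the same length. CACCC, the core of the box read by KLF factors, was in all 5 and in 52.01% of all windows. CCAAT was in the 4 globin windows and in 33.85% of all, and was not in the Alas2 window. These are matches of letters only, and in the 5 windows no match overlapped that of another motif.

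The libraries held 35628211 to 37635741 counts each, of which the 5 genes took 0.0227 to 0.0799%, and 3 counts corresponded to 0.0797 to 0.0842 CPM (counts scaled to the size of the library). Replicates of a group differed by 12.7 to 61.3 times the sampling variance (chi-square per degree of freedom), so no library was a copy of another of its group. Pairs from different groups were not compared in this way. TE replicate 4 stood apart: it was the highest of the 16 libraries in all 5 genes, and its summed level of 13 T and B cell genes was 75.0 CPM, against a median of 1.48 in the 4 TE mice and at most 29.7 in any mouse of the other groups. Values with and without it are given below. Ckm, the muscle creatine kinase that identifies the tissue, had 680759 to 893505 counts a library.

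Alas2 transcripts were at about double the level in tumor-bearing muscle, trained or not. In C the level per length was 5.26, 5.86, 4.40 and 3.92 FPKM (fragments per kilobase of gene, scaled to library size), and in E 4.28, 5.57, 5.62 and 5.02 FPKM. In T it was 9.38, 10.1, 10.6 and 9.78 FPKM, and in TE 12.3, 9.89, 9.69 and 14.8 FPKM, with replicates in order. Every tumor-bearing mouse lay above every tumor-free mouse, while C overlapped E and T overlapped TE. How many of all genes separate tumor-bearing from tumor-free mice in this way was not counted, here or for the genes below. The means were 4.86 ± 0.866 FPKM in C, 5.12 ± 0.624 in E, 9.95 ± 0.504 in T and 11.7 ± 2.41 in TE (SD, n = 4), from 287 to 1098 counts a library.

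Hbb-bs, a β-globin gene, was the most abundant of the 5 in every group. It was at 284, 308, 212 and 237 FPKM in C and at 230.4, 324, 351 and 265 FPKM in E. In T the values were 459, 465, 489 and 441 FPKM, and in TE 526, 521, 515 and 693 FPKM. The order of the groups by mean was C (260.4 ± 43.7), E (293 ± 55.0), T (464 ± 19.4) and TE (564 ± 86.3), and only C and E overlapped. How many of all genes had every TE mouse above every T mouse was not counted, here or for Hbb-bt. T had the narrowest spread, at 4.19% of its mean, and TE replicate 4 lay well above the other TE mice.

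Hbb-bt, the neighbouring β-globin gene, was lower than Hbb-bs in each library. Its level was 42.4, 43.1, 28.1 and 32.3 FPKM in C and 32.5, 46.2, 51.5 and 42.6 FPKM in E. In T it was 64.4, 73.9, 72.9 and 63.4 FPKM, and in TE 80.0, 74.7, 77.2 and 155 FPKM. C and E overlapped, and the lowest TE mouse was just above the highest T mouse. The TE mean of 96.7 ± 38.8 FPKM rested on TE replicate 4, against 68.6 ± 5.49 in T, 43.2 ± 8.03 in E and 36.5 ± 7.46 in C.

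Hba-a1, an α-globin gene, followed Hbb-bs in abundance. It was at 125, 136, 92.1 and 103 FPKM in C and at 99.9, 130.0, 142 and 118 FPKM in E. In T it was at 207, 234, 195 and 169 FPKM and in TE at 202, 217, 210.0 and 320.5 FPKM. Tumor-bearing and tumor-free mice did not overlap, and T and TE did. For Hba-a2, its near-copy, the levels were 38.3, 33.6, 23.6 and 23.9 FPKM in C and 23.6, 28.5, 30.3 and 29.5 FPKM in E. They were 47.4, 37.3, 45.9 and 49.6 FPKM in T and 57.3, 48.9, 50.2 and 87.5 FPKM in TE. Here 1 T mouse fell below the highest C mouse, so T and C overlapped, while TE lay above E throughout.

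**Figure D1:**
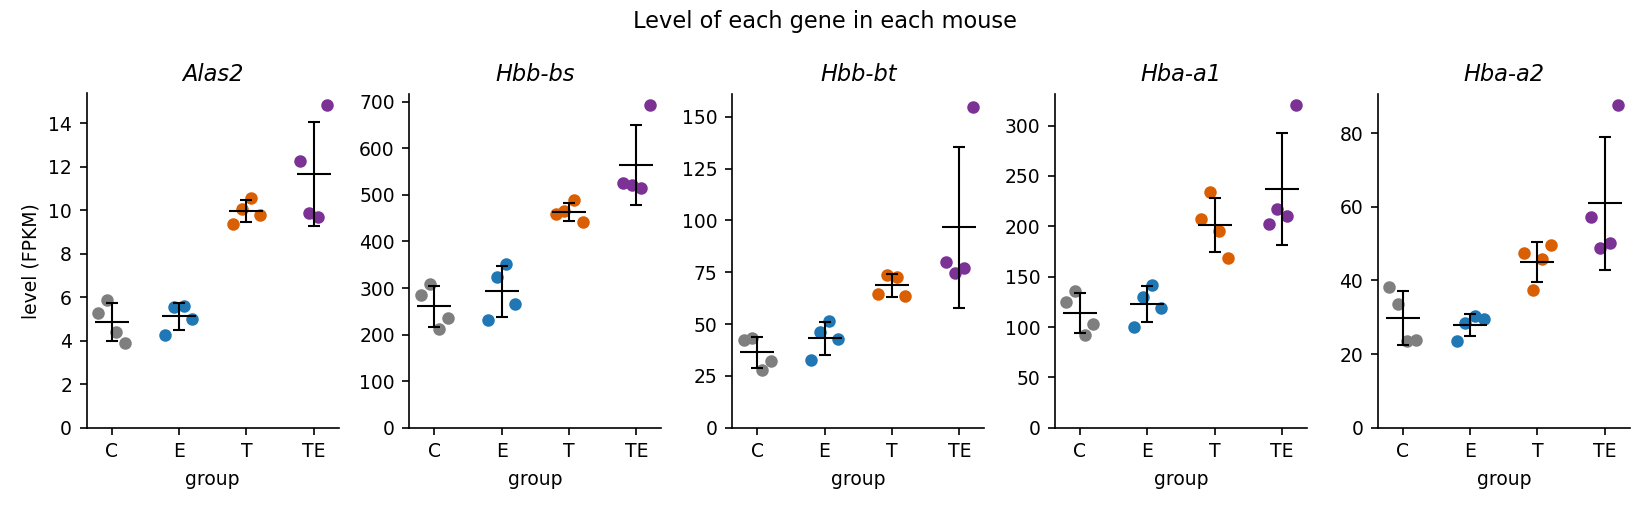
Level of each gene in FPKM (vertical axis, from 0) in each of the 4 mice of groups C, E, T and TE; points are mice, bars the mean and SD. T and TE mice sit above C and E mice for every gene but Hba-a2, where 1 T mouse (37.3 FPKM) is below the highest C mouse (38.3 FPKM), and TE replicate 4 is the highest point of each panel. How many of all genes show such a separation was not counted.

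In trained mice, the presence of the tumor went with higher levels of all 5 genes (TE vs E). Neither group is part of the comparison taken as the selecting one, but if TE and E values entered the choice of genes, the p-values below are too small. Alas2 was 2.35-fold higher in TE, with a log2 fold change of 1.23 (SE 0.135) and an adjusted p of 0.000775, the smallest of all 14749 genes (edgeR quasi-likelihood test, Benjamini-Hochberg). Among the β-globins, Hbb-bs rose by 0.99 on the log2 scale (SE 0.132, edgeR adjusted p = 0.00425) and Hbb-bt by 1.20 (SE 0.203, adjusted p = 0.0124). Among the α-globins, Hba-a1 rose by 1.00 (SE 0.154, edgeR adjusted p = 0.00698) and Hba-a2 by 1.17 (SE 0.182, adjusted p = 0.00746). All 5 genes passed the 0.05 threshold upward, which 0.115% of the tested genes did, and 0.231% passed in either direction. These shares include the 5 genes, whose levels varied together, so the 5 results are not separate from each other. For each gene the 4 TE mice lay above the 4 E mice, as they did for 2.68% of the tested genes, the lowest TE level in CPM being 1.48 to 1.82 times the highest E level. The median log2 fold change of the 5 genes was 1.17, against 0.003 over all tested genes.

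Without TE replicate 4 the 5 genes still passed, with log2 fold changes of 1.12 for Alas2, 0.90 for Hbb-bs, 0.91 for Hbb-bt, 0.85 for Hba-a1 and 0.96 for Hba-a2 and edgeR adjusted p-values of at most 0.0230. With the counts of each pair added together, a step chosen after the data were seen, the log2 fold change was 1.02 (SE 0.140) for the β-globins and 1.03 (SE 0.151) for the α-globins. An exact two-sided permutation test of log2(FPKM + 1) gave p = 0.0286 for each gene, the smallest that 4 against 4 mice allow. That value follows from every TE mouse lying above every E mouse, so it adds nothing to the separation given above.

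Training within tumor-bearing mice (TE vs T) shares the T mice with the comparison taken as the selecting one. Alas2 differed by 0.21 on the log2 scale (95% interval −0.07 to 0.49) and Hbb-bs by 0.27 (−0.01 to 0.54). For Hbb-bt the difference was 0.47 (0.05 to 0.89), for Hba-a1 0.22 (−0.10 to 0.54) and for Hba-a2 0.41 (0.04 to 0.79). No gene passed (edgeR adjusted p 0.839 to 0.900), and 2 of the 5, Hbb-bt and Hba-a2, had an unadjusted p under 0.05. In this comparison 0% of all genes passed; 867 had an unadjusted p under 0.05, and DESeq2 called 7, none of them among the 5. Without TE replicate 4 the differences shrank to 0.06 to 0.21. Intervals up to 0.89 do not exclude a further rise with training.

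Training without a tumor (E vs C), which shares the C mice with the comparison taken as the selecting one, moved none of the 5 genes past the threshold, where 0.0881% of all genes passed. The log2 fold changes were 0.04 for Alas2 (95% interval −0.25 to 0.32), 0.13 for Hbb-bs (−0.15 to 0.40), 0.20 for Hbb-bt (−0.23 to 0.63), 0.06 for Hba-a1 (−0.26 to 0.39) and −0.13 for Hba-a2 (−0.52 to 0.25). The adjusted p-values were 0.696 to 0.936 (edgeR), none had an unadjusted p under 0.05, and DESeq2 called 0 of the 5. The upper bounds of the 5 intervals were at most 0.63.

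In untrained mice (T vs C), taken as the selecting comparison, the log2 fold changes were 1.06 for Alas2 (SE 0.135), 0.86 for Hbb-bs (SE 0.132), 0.93 for Hbb-bt (SE 0.204), 0.85 for Hba-a1 (SE 0.154) and 0.62 for Hba-a2 (SE 0.181). Every T mouse lay above every C mouse for 4 of the 5 genes and for 4.03% of all tested genes, and 0.678% of all genes passed the threshold in either direction; nothing is read from these shares about the 5 genes. T vs C and TE vs E share no mouse, and their differences stood at 0.62 to 1.06 and 0.99 to 1.23. The T vs C values may be large through the choice of the genes, so they lend no support to those of TE vs E.

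**Figure D2:**
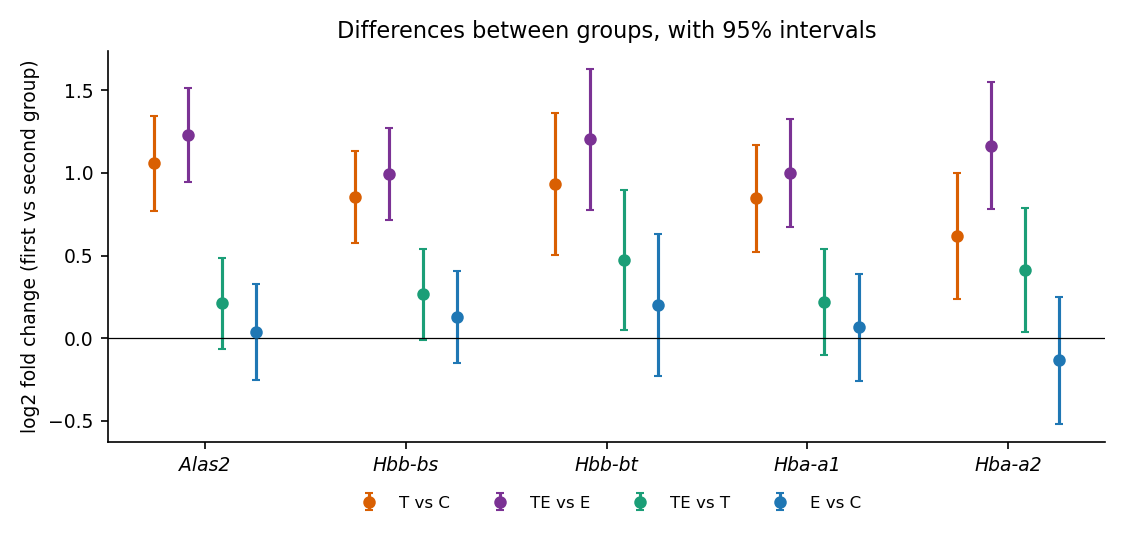
Log2 fold change (vertical axis) of each gene in the 4 comparisons, with 95% intervals from the count model. TE vs E (0.99 to 1.23) lies above 0 for each gene, and E vs C (−0.13 to 0.20) spans 0 for each. T vs C (0.62 to 1.06) was taken as the comparison that selected the genes, and its intervals are not read as a test.

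The 4 globin genes summed to 441 ± 77.3 FPKM in C, 486 ± 83.0 in E, 779 ± 39.4 in T and 959 ± 198 in TE (SD, n = 4). By level per length the order was Hbb-bs, Hba-a1, then Hbb-bt above Hba-a2 in group means, then Alas2. The ratio of the β-globin sum to the α-globin sum was 1.99 to 2.34 over the 16 mice, with a mean of 2.07 in C, 2.22 in E, 2.17 in T and 2.23 in TE, differences that lie within the spread between mice. Within the β-globins, Hbb-bs was 6.21 to 7.57 times Hbb-bt in 15 mice and 4.48 times in TE replicate 4. Within the α-globins, Hba-a1 was 3.25 to 6.27 times Hba-a2. The summed globins were 91.0 ± 8.37 times Alas2 in C, 94.6 ± 5.58 in E, 78.3 ± 4.15 in T and 82.6 ± 8.13 in TE. The mice of T (74.0 to 82.9) and of TE (70.6 to 88.0) lay below those of E (90.3 to 102), and both groups overlapped C (81.0 to 101). All these globin levels and ratios depend on how reads that fit both copies of a pair were counted, which is not stated.

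Across the 16 libraries the log2 levels of any pair among the 5 genes correlated with r of 0.917 to 0.981, a description in which the groups and the shared libraries enter. After each group's mean was removed, r was 0.663 to 0.917, and 0.487 to 0.950 without TE replicate 4. Mice of 1 group with more of one of these transcripts tended to have more of the others, and the weakest pair was the near-copies Hba-a1 and Hba-a2.

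**Figure D3:**
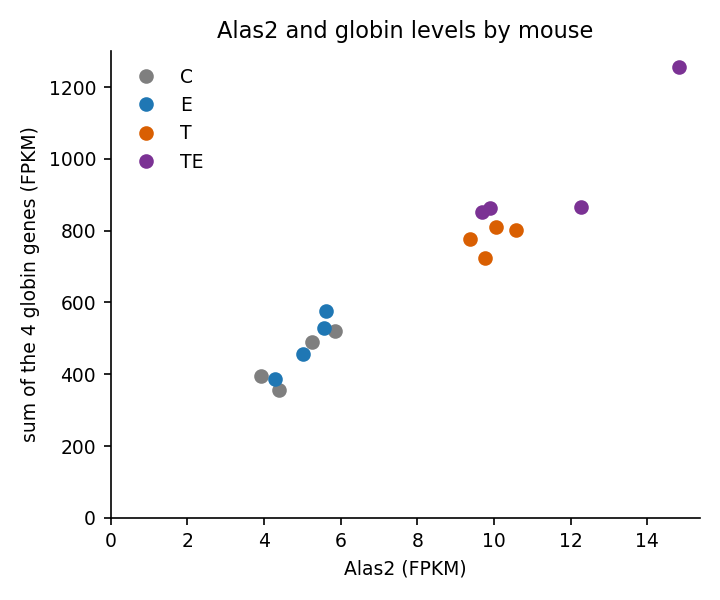
Alas2 (horizontal axis, FPKM) against the sum of the 4 globin genes (vertical axis, FPKM), 1 point per mouse, colored by group. C and E mice lie at 3.92 to 5.86 FPKM of Alas2 and 356 to 575 FPKM of globins, T and TE mice at 9.38 to 14.8 FPKM and 723 to 1256 FPKM.

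The other genes of heme synthesis did not pass the test. Of 22 further genes of heme synthesis and its mitochondrial transport, 21 could be tested and none passed in any of the 4 comparisons with edgeR or DESeq2. At most 1 had an unadjusted p under 0.05 in a comparison. In TE vs E their median log2 fold change was 0.08 (range −0.05 to 0.21), against 0.003 over all genes. Of the 21, 18 had a positive log2 fold change there, 15 in T vs C, 5 in TE vs T and 4 in E vs C. Without TE replicate 4, a step chosen after the data were seen, 20 were positive in TE vs E. Of these genes 3 then had an unadjusted p under 0.05 (edgeR) and 0 passed. Alas1, the synthase of non-erythroid cells, was at 41.8 FPKM in E and 39.0 in TE, a log2 fold change of −0.05 (95% interval −0.21 to 0.10). It was thus above Alas2 in level per length in every group mean. Fech, the ferrochelatase that places iron in the ring, was at 52.6 FPKM in E and 52.9 in TE (0.06, interval −0.07 to 0.19).

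**Figure D4:**
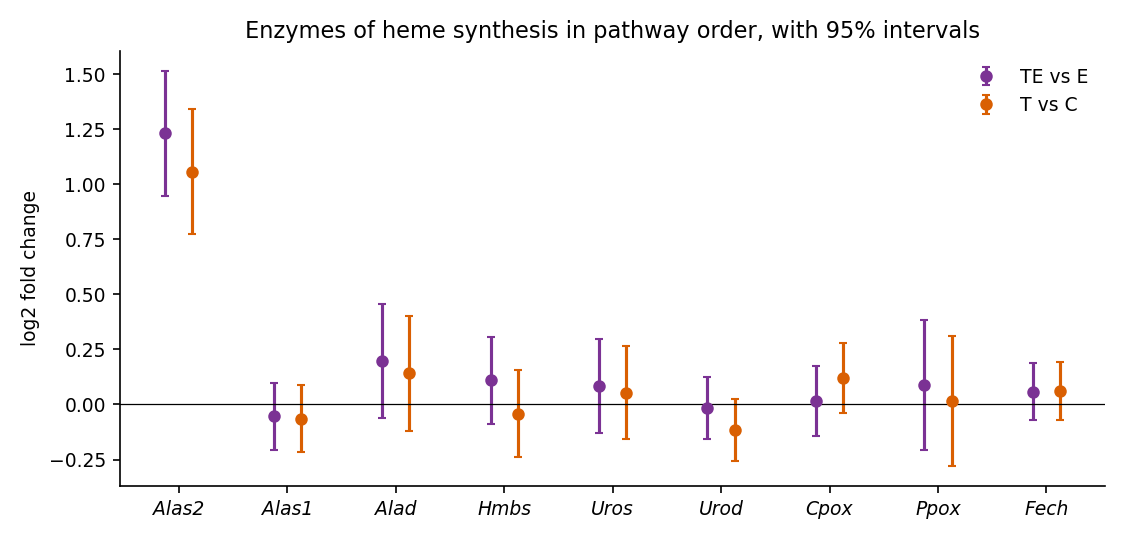
Log2 fold change (vertical axis) with 95% intervals of Alas2, Alas1 and the enzymes of the later steps in pathway order, in TE vs E and T vs C. Alas2 stands at 1.23 and 1.06, and the other 8 enzymes at −0.11 to 0.20.

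Of 27 genes of heme breakdown and iron handling 23 were tested, and none passed in any comparison with edgeR, while DESeq2 called 2 lower in T vs C and 0 elsewhere. An unadjusted p under 0.05 was found for 1 to 6 of them a comparison. In TE vs E, where 2 had an unadjusted p under 0.05, Hmox1, the inducible heme oxygenase, differed by −0.44 (edgeR adjusted p = 0.314) and Tfrc, the transferrin receptor, by −0.41 (adjusted p = 0.472). Mb, which encodes the oxygen-binding myoglobin of muscle, had 107354 to 151606 counts a library and differed by 0.07 (adjusted p = 0.835). Mb and 1 further gene were the tested ones of 9 other globin-family genes in the table, and neither passed in any comparison with either tool. The embryonic globins Hbb-y, Hba-x and Hbb-bh2 were at 0 counts in all libraries, and Hbb-bh1 had 4 counts in all; these were chosen for mention after their values were seen.

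Of 51 further erythroid genes, 33 were tested and 1 passed upward in TE vs E, and none in the other comparisons, where 2 to 6 had an unadjusted p under 0.05. That gene was Ube2l6, which encodes a conjugating enzyme of ubiquitin and ISG15 and is also induced by interferon. Its level was 6.17 FPKM in E and 9.32 in TE, a log2 fold change of 0.64 (SE 0.111, edgeR adjusted p = 0.0149), and in T vs C it differed by 0.47 (adjusted p = 0.0604). DESeq2 called Ube2l6 in both, and 1 further gene in E vs C. In TE vs E 6 of the 33 had an unadjusted p under 0.05 and the median log2 fold change was 0.06.

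The genes that define the erythroid lineage were close to the limit of counting. Slc4a1, the band 3 anion exchanger, had 15, 5, 2 and 7 counts in C, 5, 3, 0 and 7 in E, 9, 19, 36 and 7 in T, and 15, 11, 14 and 13 in TE. Its log2 fold change in TE vs E was 1.83 (SE 0.721, edgeR adjusted p = 0.428), and TE lay above E without overlap. Ahsp, which stabilizes free α-globin chains, reached at most 11 counts.

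Gata1 and Klf1, erythroid transcription factors, had few counts. Gata1 had 1 count in the 16 libraries together, and Klf1 had 7 in C, 7 in E, 2 in T and 1 in TE. Epor, the erythropoietin receptor, had 3 to 17 counts a library and differed by −0.13 in TE vs E (adjusted p = 0.963). Its counts were 6, 14, 7 and 16 in C and 6, 3, 10 and 4 in T, toward lower values in T with overlap. The 18 erythroid genes too low to test summed to 9 to 26 counts a library in C, 5 to 21 in E, 22 to 35 in T and 29 to 36 in TE, so in sum T and TE lay above E and TE above C, and these sums carry no test.

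**Figure D5:**
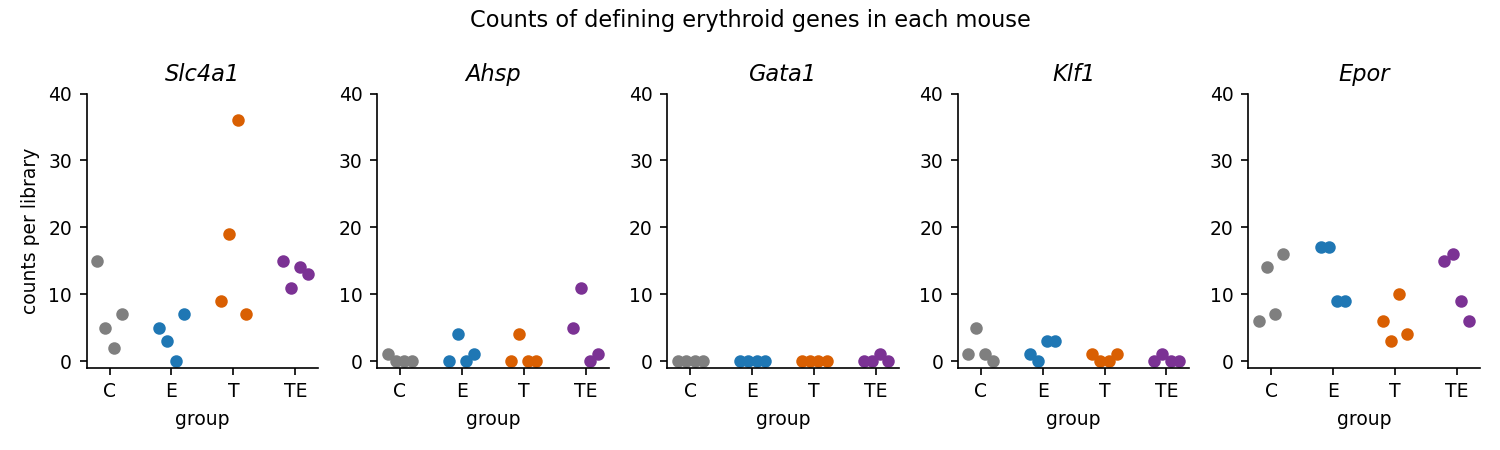
Raw counts per library (vertical axis) of 5 erythroid genes in the 4 mice of each group; points are mice. Slc4a1 reaches 36 counts in a T mouse and lies at 11 to 15 counts in TE, and Gata1 has 1 count in all.

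Markers of other cell types in blood and muscle were measured beside these results. The summed level of 17 neutrophil genes was 3.05 to 7.18 CPM in E and 14.7 to 28.8 in TE, and 2.75 to 17.2 in C and 11.7 to 57.7 in T. In TE vs E all 11 tested ones had a positive log2 fold change (median 1.84) and none passed, 6 having an unadjusted p under 0.05, whereas DESeq2 called 4 of the list higher. In T vs C 5 passed upward with edgeR and 6 with DESeq2, S100a8 and S100a9 among them. S100a8 and S100a9, which encode the calprotectin subunits, differed by 2.56 each in TE vs E (edgeR adjusted p = 0.122 and 0.0961). The part of these cells in the globin and Alas2 values was not tested.

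The 14 platelet genes summed to 15.7 to 22.0 CPM in E and 17.1 to 20.3 in TE, and to 12.1 to 20.5 CPM in C and 15.9 to 32.2 in T, with overlap in both comparisons. Of the 6 tested, 4 had a positive log2 fold change in TE vs E (median 0.05) and 5 in T vs C (median 0.74), with an unadjusted p under 0.05 for 1 and 3. None passed in any comparison with edgeR or DESeq2. Pf4, the platelet chemokine gene, differed by −0.29 in TE vs E (edgeR adjusted p = 0.741) and −0.01 in T vs C (adjusted p = 0.991), unlike most of its list. The part of platelets in the globin and Alas2 values was not tested.

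The 13 endothelial genes summed to 1081 to 1243 CPM in E and 958 to 1197 in TE, with a median log2 fold change of 0.006. In TE vs E none passed with edgeR, 3 had an unadjusted p under 0.05 and 7 a positive log2 fold change. Kdr, the VEGF receptor gene, named after its value was seen, differed by −0.69 (edgeR adjusted p = 0.0757) and was the 1 gene that DESeq2 called there, while Pecam1, which encodes a junction protein of vessel walls, differed by 0.03 (adjusted p = 0.973). In T vs C, 8 had an unadjusted p under 0.05, Kdr fell by 0.68 on the log2 scale (edgeR adjusted p = 0.0457) as the 1 that passed, and DESeq2 called 3 higher and 2 lower.

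The 13 T and B cell genes summed to 1.73 to 18.0 CPM in E and 1.09 to 75.0 in TE, and to 1.49 to 29.7 in C and 0.837 to 2.34 in T. All 12 tested had a negative log2 fold change in T vs C (median −3.61, 6 with an unadjusted p under 0.05) and a positive one in TE vs T (median 3.88, 10 with such a p) and in TE vs E (median 1.40, 0 with such a p). The positive values rested on TE replicate 4: without it, a step chosen after the data were seen, the TE sums were 1.09 to 1.66 CPM, all 12 had a negative log2 fold change in TE vs E (median −2.85, 7 with an unadjusted p under 0.05), and in TE vs T 5 were positive and 7 negative (median −0.11, 0 with such a p). None passed in any comparison with edgeR or DESeq2, nor without that mouse with edgeR. The 12 muscle genes summed to 144489 to 157689 CPM in E and 159102 to 176519 in TE, without overlap, and Ckm differed by 0.19 (edgeR adjusted p = 0.403). No muscle gene passed with edgeR, at most 2 had an unadjusted p under 0.05 in a comparison, and DESeq2 called 1 in T vs C. The part of these cell types in the globin and Alas2 values was not tested.

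Genes whose log2 levels over the 16 libraries followed the mean of the 5 most closely were Ube2l6 (r = 0.942), Lrg1 (0.897), Osmr (0.893), Grrp1 (0.867) and S100a9 (0.860), a likeness in which the group differences enter. Lrg1, a secreted leucine-rich glycoprotein gene, rose by 1.03 in TE vs E (edgeR adjusted p = 0.00425) and Osmr, the oncostatin M receptor gene, by 0.94 (adjusted p = 0.00698). All 5 were again the closest without TE replicate 4. Once group means were removed, the 10 closest were Lfng, Mmrn1, Bola1, Hoxb3, Dapp1, Snrpc, Tuba1b, Gabrb2, Rmi1 and Apool, with r from 0.768 to 0.854, and 0 of these 10 were among the 10 closest without that mouse.

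Neighbouring genes, chosen by position after the files were seen, did not pass the test. Pfkfb1, 17591 bases after Alas2, differed by −0.05 in TE vs E (edgeR adjusted p = 0.937), and Apex2, which overlaps Alas2, by −0.004 (adjusted p = 0.996). Nprl3, 15467 bases before the α-globin genes, differed by 0.01 (adjusted p = 0.983), and Sh3pxd2b, 50481 bases after them, by −0.36 (adjusted p = 0.662). Trim6, the nearest tested gene of the β-globin locus at 385011 bases, differed by 0.39 (adjusted p = 0.804).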

How the data were processed

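Poly(A) RNA of gastrocnemius muscle was sequenced in 16 mice, 4 a group. The authors trimmed reads with fastp 0.20.1, aligned them with HISAT2 2.1.0 to GRCm39 and counted them with HTSeq 0.11.2 (tools and build per the submitters' processing notes). The strand setting, the treatment of reads that fit several places and the annotation release are not given in the sources used here. The deposited counts are whole reads per gene and were tested. The deposited FPKM values, computed by the authors from counts, gene length and library size, were used for levels between genes. No column of another series was present.

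Genes were filtered with filterByExpr, scaled by TMM and fitted in edgeR 4.0.16 (R 4.3.3) with 1 coefficient per group over all 16 libraries. Quasi-likelihood tests were adjusted by Benjamini-Hochberg over 14749 genes, with a threshold of 0.05; SE is the log2 fold change divided by the root of F. The steps were tested on simulated data. Alternatives used DESeq2 1.42.0, other scalings, no filter, fewer groups, a replicate block and each mouse left out. In the main fit, p-values weigh a group difference against the spread between mice, which was estimated over all 4 groups.

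The members, gene lists and tests were chosen with earlier results of these data known. The contrast behind the choice of members is not named; T vs C was taken as it, so the TE vs E test may not be independent of the choice. Named genes were the members, genes of the erythroid, heme, iron and globin lists that passed in any comparison, defining genes of those lists and of other cell types (S100a8, S100a9, Pf4, Pecam1, Ckm), and the 5 and 10 genes most alike; 1 of the defining genes is not reported here. Likeness was Pearson's r of log2 CPM (prior count 2) with the mean standardized level of the members. Promoter sequences came from RefSeq, transcripts and positions from GENCODE; all 5 members matched.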

Additional observations from a re-analysis of the deposited data

Results flagged for a closer look

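In 4 of 40 groups of 4 values examined, 1 mouse lay further from the others than Dixon's 95% limit; chance alone gives about 1 group in 20. Each was TE replicate 4. It had 693 FPKM of Hbb-bs, with the other TE mice at 515 to 526 FPKM. Hbb-bt was at 155 FPKM, with the others at 74.7 to 80.0 FPKM. Hba-a1 was at 320.5 FPKM, with the others at 202 to 217 FPKM. The ratio of Hbb-bs to Hbb-bt was 4.48, with the others at 6.58 to 6.98. The summed level of 13 T and B cell genes was 75.0 CPM in the same library, and the part of those cells in these values was not tested.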

How the results depend on the processing

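All 5 members passed in TE vs E, and 0 in TE vs T and 0 in E vs C, under each alternative that gives an adjusted p and with each mouse of the groups compared left out in turn; mice of the other groups were not left out, and the paralog sums carry no test. Their log2 fold changes in TE vs E ranged over these settings from 1.04 to 1.30 for Alas2, 0.89 to 1.08 for Hbb-bs, 0.91 to 1.30 for Hbb-bt, 0.85 to 1.07 for Hba-a1 and 0.96 to 1.25 for Hba-a2, the lowest of Alas2 being the difference on the log2(FPKM + 1) scale. The largest adjusted p (edgeR) was 0.0492, for Hbb-bt without E replicate 4. Adding the counts of each pair of paralogs was chosen after the data were seen. The genes most alike within groups rested on TE replicate 4: 0 of 10 stayed among the 10 closest without it.

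The counts of all genes that passed moved more. In TE vs E, 34 genes became 180 with DESeq2 (57 higher and 123 lower, against 17 and 17), 69 with no filter, 96 with only the groups compared (21 and 75) and 18 to 33 with a mouse of those groups left out. In TE vs T, 0 became 7 with DESeq2, 3 with no filter and 0 to 1 with a mouse left out. In E vs C, 13 became 252 with DESeq2, 21 with DESeq2 size factors, 45 with no filter, 183 with only the groups compared and 0 to 35 with a mouse left out. In T vs C, 100 became 432 with DESeq2, 62 with no normalization factors, 174 with no filter, 30 with only the groups compared and 16 to 255 with a mouse left out. The replicate block gave 28 genes in TE vs E and 25 in E vs C; replicate numbers name different mice (same-number correlation −0.24 to 0.21, and 5 of 16 libraries closest to their own number), so the samples share only a number.

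Near-identical paralogs in the reference limit the split within each globin pair and the level of its sum, and Ahsp, Gata1 and Klf1 had too few counts to test.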
